A study of Mus musculus with 4 samples.

Results

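The intraflagellar transport complex A (IFT-A) was examined in the retina of mouse embryos at embryonic day 19. Its 6 subunit genes, Ift122, Wdr19, Ift140, Wdr35, Ttc21b and Ift43, were taken by symbol from a table of 18471 genes, and all 6 were found. Total RNA came from retinas of individual genotyped embryos, with 2 libraries labelled wild-type and 2 labelled Foxn3KO. The second group carries the genotype Foxn3-/- of a C57BL/6NJ line that lacks exon 3 of Foxn3, a gene for a forkhead transcription factor. Groups and replicates are named here by their labels. The study asks which genes of the primary cilium depend on Foxn3 in the developing retina. Because whole retina was used, fewer cells of a type and less RNA per cell cannot be told apart.

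Intraflagellar transport moves cargo along the microtubules of the cilium in trains built from the complexes IFT-A and IFT-B. Kinesin-2 motors drive the trains to the tip, and cytoplasmic dynein-2 returns them to the base. IFT-A is best known for the return leg and, with the adaptor Tulp3, for bringing membrane receptors into the cilium. Its subunits Ift122, Wdr19 (IFT144) and Ift140 form a core, to which Wdr35 (IFT121), Ttc21b (IFT139) and Ift43 attach as a peripheral group. In the retina, the outer segment of photoreceptors is a modified cilium that is supplied by this transport.

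Total counts were 22543531 to 29360129 per library. In the wild-type-labelled libraries Foxn3 had 2421 and 2712 counts, and in the Foxn3KO-labelled ones 4181 and 3219. Its log2 fold change was 0.54 (SE 0.05, edgeR adjusted p = 7.8e-08). Gene counts do not resolve exon 3, so they do not check the deletion, and each direction below rests on the labels. Wild-type replicate 1 stood apart in sex-linked RNA, with 83073 Xist counts against 9 to 19 in the other libraries and 0 Ddx3y counts against 1780 to 2317. Retinal markers were abundant in every library: the summed level of 23 markers was 5166 to 5370 CPM (counts scaled to library size with TMM factors), led by Pax6, and none of them was at or under 3 counts throughout. Lens markers differed between the wild-type-labelled libraries as well as between the groups. The sum over 15 of them was 8.35 and 96.6 CPM in wild-type replicates 1 and 2, and 351.6 and 351.9 CPM in the Foxn3KO-labelled libraries.

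Promoters are shown for 3 subunits, chosen because Wdr19 and Wdr35 rose and Ttc21b did not pass the test. Each is the RefSeq window from 250 bases before to 50 after the gene's start, 5′ to 3′ on the gene's strand, in build GRCm38.p6. A promoter was matched for 5 of the 6 subunits. Capitals mark matches to RFX or forkhead motifs, on either strand. RFX factors and the forkhead factor Foxj1 are known activators of cilia genes. Wdr19 lies on the plus strand at chr5:65199446-65199745, Wdr35 on the plus strand at chr12:8973751-8974050 and Ttc21b on the minus strand at chr2:66256568-66256867.
Wdr19: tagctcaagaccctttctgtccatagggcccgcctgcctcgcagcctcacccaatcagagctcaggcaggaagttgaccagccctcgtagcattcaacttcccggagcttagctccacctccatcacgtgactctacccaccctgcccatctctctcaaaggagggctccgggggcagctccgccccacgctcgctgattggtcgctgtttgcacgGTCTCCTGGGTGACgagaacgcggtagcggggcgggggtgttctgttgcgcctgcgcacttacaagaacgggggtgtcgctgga
Wdr35: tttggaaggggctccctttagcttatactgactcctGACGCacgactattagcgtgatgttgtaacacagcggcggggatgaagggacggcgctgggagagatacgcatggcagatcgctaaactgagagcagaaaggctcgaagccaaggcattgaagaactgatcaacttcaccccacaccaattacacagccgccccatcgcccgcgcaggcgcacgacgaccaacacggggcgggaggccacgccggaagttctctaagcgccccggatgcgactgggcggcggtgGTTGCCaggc
Ttc21b: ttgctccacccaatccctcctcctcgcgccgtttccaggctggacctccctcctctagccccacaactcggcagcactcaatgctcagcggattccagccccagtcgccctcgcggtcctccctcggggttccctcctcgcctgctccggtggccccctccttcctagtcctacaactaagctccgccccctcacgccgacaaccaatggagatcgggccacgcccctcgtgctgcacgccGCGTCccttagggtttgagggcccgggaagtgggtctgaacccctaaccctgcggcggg

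Motifs were searched on both strands of these windows. The RFX palindrome whose arms GTNNCC and GGNNAC are 2 bases apart, present in 1.9% of 32544 promoters of this length, matched Wdr19 as GTCTCCTGGGTGAC at bases 217 to 230 of the window. The same palindrome with its arms 1 base apart, present in 1.02%, matched none of the 5 subunit promoters. The RFX arm GTTGCC, found in 12.4% of promoters, occurred in Wdr35 at bases 291 to 296 and on the opposite strand of Ift140. The forkhead motif GTAAACA, found in 3.66%, matched none of the 5, whereas the forkhead-like motif GACGC, found in 27.3%, matched 4: Ttc21b, Wdr35, Ift43 and Ift140. A GACGC match was present in the promoters of Wdr35, Ift43 and Ift140, which passed the test, and of Ttc21b, which did not. It was absent from that of Wdr19, which passed. Whether any of the motifs bears on the changes was not tested. The hits are matches of letters and not measured binding.

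Of the 6 subunits, 5 were higher in the Foxn3KO-labelled libraries at an edgeR adjusted p under 0.05, and Ttc21b did not pass. Across all 17300 tested genes, 21.9% were called, 12.3% higher and 9.66% lower. The balance of directions over all genes turned with the scaling, from 2123 higher and 1672 lower to 1916 higher and 2060 lower under total count scaling, where the same number of subunits, 5, was called. The 5 subunits called were Ift122, Ift43, Wdr19, Wdr35 and Ift140. The first 4 of these rose by at least 2.04-fold, a range of 2.04 to 2.24. Of all tested genes, 2.86% were called with a rise of at least 2-fold. Ift140 rose by 1.20-fold. All 6 subunits passed the filter on low counts. Without wild-type replicate 1, which stood apart in sex-linked and lens RNA, the same 5 passed and the log2 fold changes of the first 4 were 1.04 to 1.25.

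**Figure D1:**
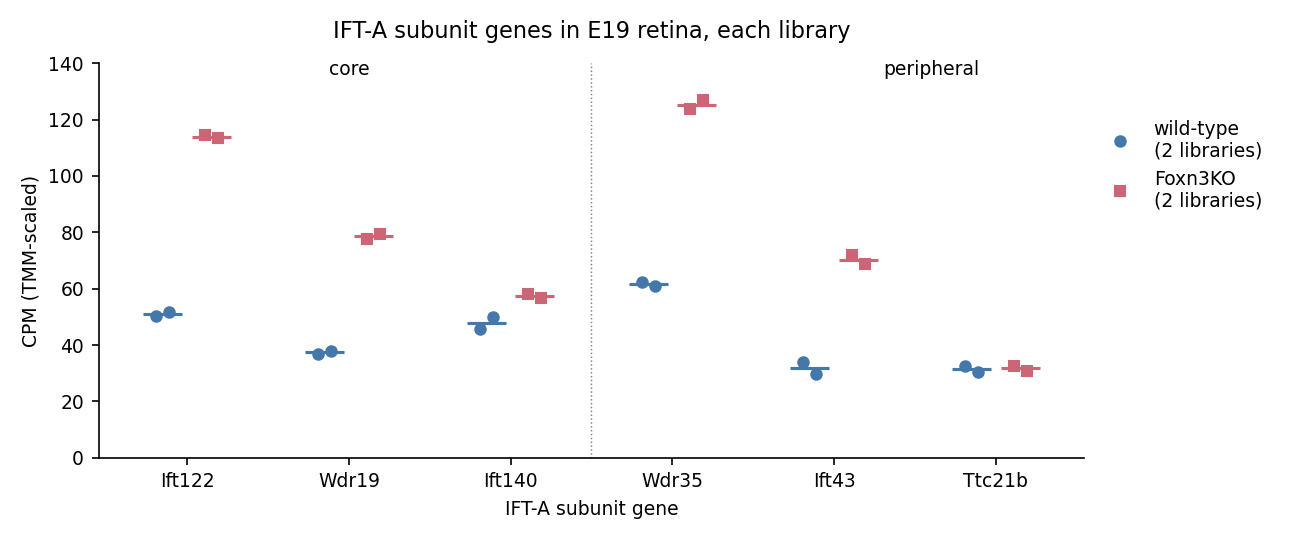
Level of each IFT-A subunit gene in CPM (vertical axis) in the 4 libraries, with a short line at each group's mean of 2. Ift122, Wdr19, Wdr35 and Ift43 lie far apart between the groups, Ift140 by a smaller gap, and the groups of Ttc21b overlap.

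The core was examined first. Ift122, a WD-repeat protein at the centre of the complex, had 1245 and 1402 counts in the wild-type-labelled libraries and 3334 and 2540 in the Foxn3KO-labelled ones. Scaled for library size, this was 50.2 and 51.6 CPM against 114.5 and 113.4 CPM. Both libraries of either group were close to each other, and 61.8 CPM separated the groups. The log2 fold change was 1.16 (SE 0.05, edgeR adjusted p = 6.29e-12), at the 97.2 percentile of all tested genes.

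Wdr19, which encodes IFT144, was at 36.9 and 37.9 CPM in the wild-type-labelled libraries and at 77.6 and 79.5 CPM in the Foxn3KO-labelled ones. The groups did not overlap; over all tested genes, both Foxn3KO libraries lay above both wild-type libraries in 29.9%. Its log2 fold change was 1.07 (SE 0.06, edgeR adjusted p = 8.71e-11).

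Ift140, the third core protein, had 1137 and 1361 counts in the wild-type-labelled libraries and 1694 and 1267 in the Foxn3KO-labelled ones. This was 45.8 and 50.1 CPM against 58.2 and 56.6 CPM. The groups were separated by 6.48 CPM, and the wild-type-labelled libraries differed from each other by 8.84% of their mean, above the 4.02% of their mean that is 1 SD of counting error. The log2 fold change was 0.26 (SE 0.06, edgeR adjusted p = 0.00486). Without Foxn3KO replicate 1 it was 0.24 with an edgeR adjusted p of 0.0538, and without wild-type replicates 1 and 2 in turn it was 0.20 and 0.33, so its size depended by over 1.5 times on the wild-type library used.

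The peripheral subunits followed the same division. Wdr35, which encodes IFT121, was at 62.3 and 60.8 CPM in the wild-type-labelled libraries and at 123.6 and 127.0 CPM in the Foxn3KO-labelled ones. It had the highest CPM of the 6 genes in each library, and its groups were 61.4 CPM apart. Its log2 fold change was 1.03 (SE 0.05, edgeR adjusted p = 2.75e-11).

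Ift43, a small subunit that lacks the WD repeats of its larger partners, had 847 and 805 counts in the wild-type-labelled libraries and 2096 and 1537 in the Foxn3KO-labelled ones. This was 34.2 and 29.6 CPM against 72.0 and 68.6 CPM. Wild-type replicates differed here by 14.2% of their mean, the widest gap among the 6 genes, where 1 SD of counting error was 4.92%. The gap between the groups, 34.5 CPM, was larger than that spread, and the log2 fold change was 1.14 (SE 0.07, edgeR adjusted p = 5.95e-10).

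Ttc21b, which encodes the tetratricopeptide-repeat protein IFT139, had 805 and 824 counts in the wild-type-labelled libraries and 951 and 692 in the Foxn3KO-labelled ones. Its levels were 32.5 and 30.3 CPM against 32.7 and 30.9 CPM, so the groups overlapped. The log2 fold change was 0.02 (SE 0.07, edgeR adjusted p = 0.889) with a 95% interval of -0.13 to 0.17. This interval lies below the 95% intervals of the 4 subunits that rose at least 2.04-fold, which together span 0.92 to 1.29. The interval of Ift140, 0.13 to 0.39, also lies below them and overlaps that of Ttc21b. Differences between subunits were not tested.

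**Figure D2:**
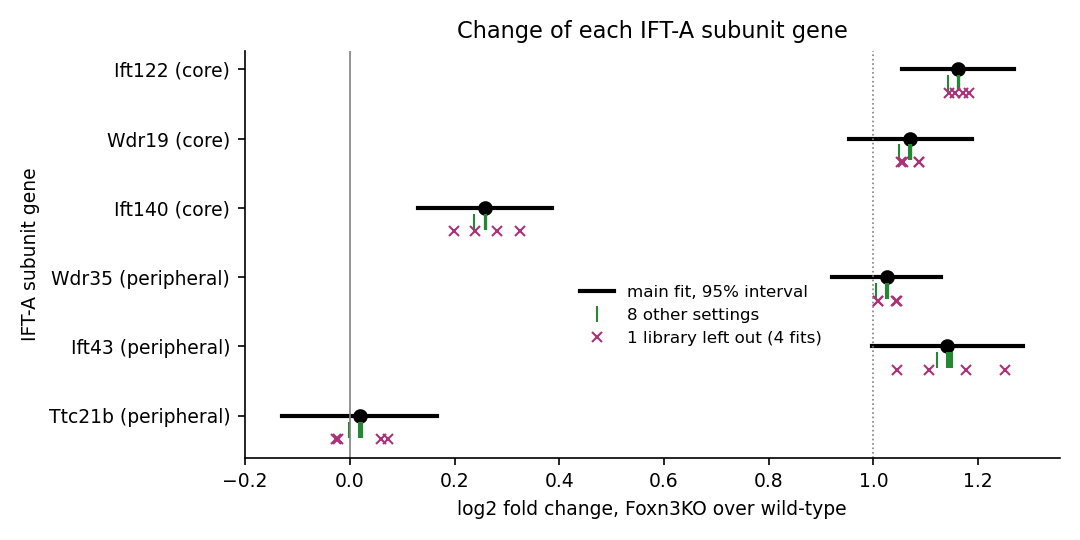
Log2 fold change of Foxn3KO over wild-type (horizontal axis) for each subunit gene, with the 95% interval as a bar, the values under 8 other settings as ticks and those with 1 library left out as crosses. Ift122, Wdr19, Wdr35 and Ift43 sit at 1.03 to 1.16, Ift140 at 0.26 and Ttc21b at 0.02.

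Core and peripheral subunits were then compared. The median log2 fold change was 1.07 over the 3 core genes and 1.03 over the 3 peripheral genes, against -0.00470 over all tested genes. Each group held 2 members with a rise of at least 2.04-fold and 1 member with a smaller value, Ift140 in the core and Ttc21b in the periphery. Summed CPM of the core genes was 133.0 and 139.6 in the wild-type-labelled libraries and 250.3 and 249.5 in the Foxn3KO-labelled ones. For the peripheral genes the sums were 128.9 and 120.8 CPM against 228.3 and 226.6 CPM. Members of a group are not replicates, and the difference between core and periphery has no test.

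Levels of different genes were compared per length, as CPM per kilobase of the gene length that the deposited FPKM values imply. In the wild-type-labelled libraries the highest level was that of Ift43, 19.3 ± 1.93 CPM per kilobase (SD, n = 2). Next came Wdr35 at 8.44 ± 0.138, Ift140 at 5.74 ± 0.359 and Ift122 at 4.92 ± 0.0954 CPM per kilobase (SD, n = 2 each). Ttc21b (3.37 ± 0.162 CPM per kilobase) and Wdr19 (3.31 ± 0.0585 CPM per kilobase) were lowest and overlapped each other (SD, n = 2 each).

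In the Foxn3KO-labelled libraries the order of these levels changed below the first and second places. Ift43 was at 42.5 ± 1.43 and Wdr35 at 17.2 ± 0.330 CPM per kilobase (SD, n = 2 each). Ift122, at 11.01 ± 0.0736 CPM per kilobase (SD, n = 2), was now above Ift140. Wdr19 (6.94 ± 0.115 CPM per kilobase) and Ift140 (6.86 ± 0.135 CPM per kilobase) overlapped, and Ttc21b was lowest at 3.41 ± 0.134 CPM per kilobase (SD, n = 2 each). The implied lengths, 1.66 to 11.3 kilobases, exceed the longest protein-coding transcripts of GENCODE M21, 0.783 to 6.94 kilobases. With those transcript lengths, Ift122 was above Ift140 in both groups, so that change of order was present only with the implied lengths. Wdr19 and Ift140 changed order with them, without overlap in either group. Wdr19 was at 5.96 ± 0.105 and Ift140 at 6.91 ± 0.432 CPM per kilobase in the wild-type-labelled libraries (SD, n = 2 each). In the Foxn3KO-labelled libraries they were at 12.5 ± 0.207 and 8.26 ± 0.163 CPM per kilobase (SD, n = 2 each). Ift43 and Wdr35 again led, Wdr35 and Ift122 overlapped in the Foxn3KO-labelled libraries, and Ttc21b and Ift140 overlapped in the wild-type-labelled ones.

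The subunits' shares of the summed level per kilobase shifted accordingly. The share of Ttc21b was 7.54% and 7.43% in the wild-type-labelled libraries and 3.95% and 3.82% in the Foxn3KO-labelled ones. Ift140 held 11.9% and 13.7% against 7.84% and 7.79%. Shares of Ift43 were 44.6% and 40.8% against 48.9% and 47.7%, and those of Ift122 10.5% and 11.4% against 12.5% and 12.6%. Relative to Ttc21b, the level of Ift122 per kilobase was 1.39 and 1.53 times as high in the wild-type-labelled libraries and 3.15 and 3.30 times as high in the Foxn3KO-labelled ones. By contrast, the ratio of Ift122 to Wdr19 moved little, from 1.485 and 1.489 to 1.61 and 1.56. The ratio of the core sum to the peripheral sum was 0.417 and 0.486 against 0.389 and 0.398. The groups did not overlap in that ratio, but the gap between them, 0.417 to 0.398, was smaller than the gap between the wild-type libraries. With transcript lengths, an alternative chosen after seeing the data, the ratio was 0.381 and 0.443 against 0.383 and 0.394, and the groups overlapped.

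**Figure D3:**
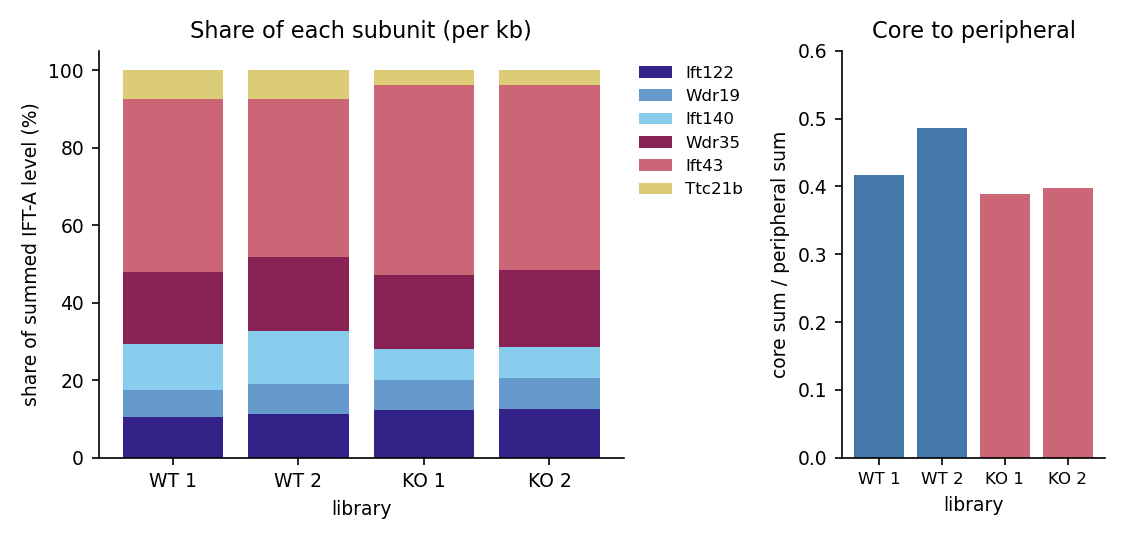
Left, share of each subunit in the summed IFT-A level per kilobase (vertical axis, %) in each library (WT, wild-type, and KO, Foxn3KO); right, ratio of the core sum to the peripheral sum, with bars from 0. Ttc21b and Ift140 take smaller shares in both KO libraries, and the ratio lies between 0.389 and 0.486 in all 4.

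Other components of the transport machinery were taken from fixed lists. Of 12 dynein-2 genes, 8 were called higher, where 12.3% of all tested genes were, and 4 did not pass. The median log2 fold change over the 12 was 0.48. The 4 that did not pass were all light chains, and the list median includes them. The heavy chain Dync2h1, the motor subunit, was at 70.9 and 69.5 CPM in the wild-type-labelled libraries and at 130.1 and 128.8 CPM in the Foxn3KO-labelled ones, a log2 fold change of 0.88 (edgeR adjusted p = 1.63e-10). The intermediate chains Dync2i1 and Dync2i2 rose by 1.37 and 0.62 and the light intermediate chain Dync2li1 by 1.01 on the log2 scale. Among the light chains, Dynlrb2 rose by 4.11, Dynlt2b by 0.76, Dynll1 by 0.34 and Dynll2 by 0.14 on the log2 scale. Dynlrb2 started from 1.49 and 1.91 CPM. Dynll2 did not pass when either Foxn3KO library was left out, with edgeR adjusted p-values up to 0.347.

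IFT-B, the partner complex that travels with kinesin-2 to the tip, was split in the same way. Of 11 IFT-B1 core genes, 8 were called higher and 1 lower, against 12.3% higher and 9.66% lower over all tested genes. The median log2 fold change over the 11 was 0.76. Ift22 rose by 1.00 in log2 terms (edgeR adjusted p = 3.3e-11), whereas Ift25 fell by 0.29 (edgeR adjusted p = 0.0486) and did not pass in DESeq2 (adjusted p = 0.19), in limma-voom, without wild-type replicate 1 or without Foxn3KO replicate 2, with log2 fold changes of -0.40 to -0.19 over the alternatives. Of 6 IFT-B2 peripheral genes, 5 were called higher, with a median of 0.55. Ift57 rose by 1.03 in log2 terms (edgeR adjusted p = 2.08e-09). The others called, Cluap1, Traf3ip1, Ift172 and Ift80, named after their values were seen, had log2 fold changes of 0.86, 0.74, 0.36 and 0.30. Among 5 kinesin-2 genes 4 were called higher, with a median of 0.50, and the motor subunit Kif3a had the smallest p, with a log2 fold change of 0.61 (edgeR adjusted p = 4.74e-09). Kif3b, Kifap3 and Kif17, named after their values were seen, had log2 fold changes of 0.50, 0.30 and 2.10, the last from 1.01 and 1.84 CPM in the wild-type-labelled libraries. The IFT-A median of 1.05 over its 6 genes stands beside these medians, and no test of the difference between lists was made.

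Adaptors and cargo of IFT-A were read from their own lists. Of 6 genes on the adaptor list, 4 were called higher by edgeR, which called 12.3% of all tested genes higher. DESeq2 called 2 of the 6, and 14.1% of all tested genes in either direction. The median log2 fold change over the 6 was 0.20. The list includes Arl13b, which is also on the cargo list. Tulp3, which links IFT-A to membrane cargo, was at 71.3 and 69.2 CPM in the wild-type-labelled libraries and at 79.7 and 77.7 CPM in the Foxn3KO-labelled ones, a log2 fold change of 0.16 (edgeR adjusted p = 0.0300). It did not pass in DESeq2 (adjusted p = 0.104), under total count scaling, or when either Foxn3KO library was left out. Its relatives Tub and Tulp1 each rose by 0.37 on the log2 scale, and Tulp1 is also among the photoreceptor markers. The small GTPase Arl13b rose by 0.24 (edgeR adjusted p = 0.0168) but did not pass in DESeq2 (adjusted p = 0.0843) or without Foxn3KO replicate 1.

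Over all tested genes, 21.9% were called in either direction. Of 8 genes for membrane cargo, 1 was called higher, the same Arl13b, and 1 lower, with a median log2 fold change of -0.01. The gene called lower was Pkd2, a ciliary channel, which fell by 0.32 (edgeR adjusted p = 0.000151). Gpr161, a receptor that depends on IFT-A and Tulp3 for its entry into cilia, was at 50.5 and 57.3 CPM against 52.3 and 52.4 CPM, a log2 fold change of -0.04 (edgeR adjusted p = 0.693).

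Hedgehog signalling, which vertebrate cells route through the primary cilium, was read from 8 genes. Of these, 4 were called lower, where 9.66% of all tested genes were, and 4 did not pass. The median log2 fold change over the 8 was -0.13. The target gene Gli1 was at 161.5 and 162.1 CPM in the wild-type-labelled libraries and at 96.8 and 96.4 CPM in the Foxn3KO-labelled ones. It fell by 0.74 on the log2 scale (SE 0.05, edgeR adjusted p = 7.92e-10). The others called, Hhip (-0.39), Gli2 (-0.27) and Ccnd1 (-0.18 on the log2 scale), were named after their values were seen. Without Foxn3KO replicate 1 Gli2 did not pass, and Ccnd1 did not pass when either Foxn3KO library was left out. Ptch1, another target, had a log2 fold change of -0.07 (edgeR adjusted p = 0.265).

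**Figure D4:**
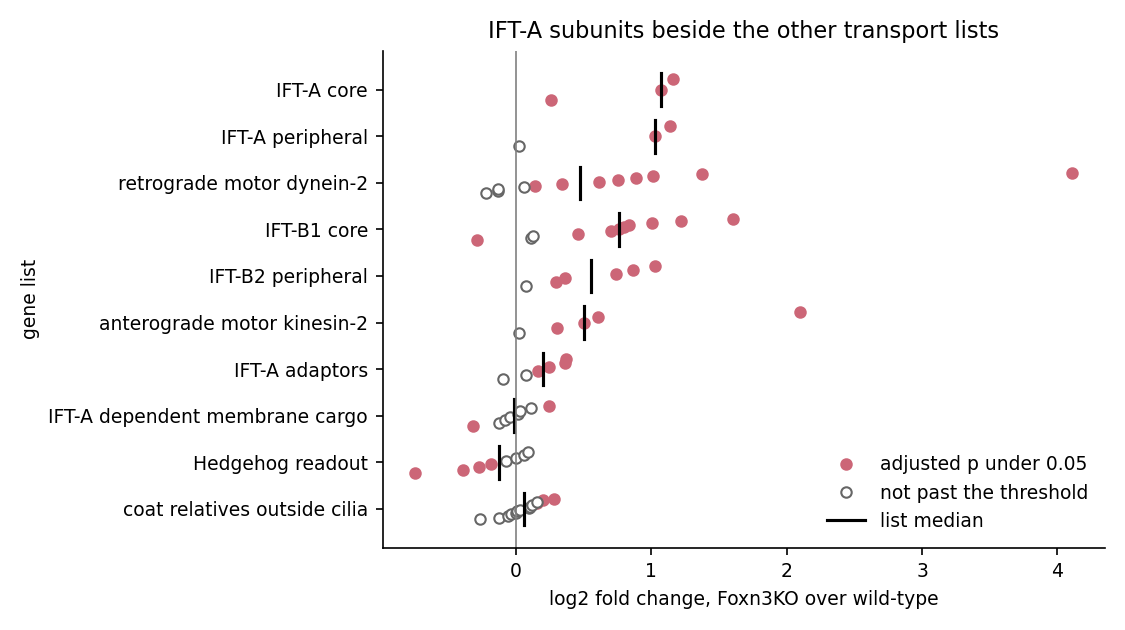
Log2 fold change of Foxn3KO over wild-type (horizontal axis) for every tested gene of each list, filled where the adjusted p was under 0.05, with the list median as a vertical line. IFT-A core and peripheral medians are 1.07 and 1.03, those of dynein-2, IFT-B and kinesin-2 lie between 0.48 and 0.76, and those of cargo and Hedgehog genes are below 0.

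Regulators of cilia genes were measured in the same libraries. Foxj1 was at 7.70 and 8.32 CPM in the wild-type-labelled libraries and at 177.0 and 174.8 CPM in the Foxn3KO-labelled ones, a log2 fold change of 4.45 (edgeR adjusted p = 1.6e-18). Rfx2 and Rfx3 rose by 1.41 and 0.40 on the log2 scale. Of the 7 regulators listed, 5 were called higher, Foxn3 itself among them, and 1, Rfx7, lower. The shares over all tested genes were 12.3% higher and 9.66% lower. Rfx7 fell by 0.15 in log2 terms (edgeR adjusted p = 0.0217). Rfx7 did not pass in DESeq2 (adjusted p = 0.0639) or when either Foxn3KO library was left out.

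Markers of other cells were set beside the IFT-A subunits. Of all tested genes, edgeR called 12.3% higher and 9.66% lower. Summed levels of 27 motile cilia axoneme genes were 185.9 and 182.4 CPM in the wild-type-labelled libraries and 1234 and 1219 CPM in the Foxn3KO-labelled ones, and 26 were called higher. Of 15 lens genes 14 were called higher by edgeR and 3 by DESeq2, which called 14.1% of all tested genes in either direction. Among the wild-type-labelled libraries the IFT-A sum was 261.9 and 260.4 CPM where the lens sum was 8.35 and 96.6 CPM. Of 19 photoreceptor precursor genes 10 were called higher, and their sum was 1840 and 1831 CPM against 1997 CPM in both Foxn3KO-labelled libraries. Of 11 pigment epithelium genes 1 was called higher and 5 lower. Their part in the IFT-A result was not tested.

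Genes beside the subunits on the chromosome were read next. Described are 11 genes that are the nearest tested gene on a side of a subunit, by RefSeq order in GRCm38.p6. Of these 11, 2 were called lower and 9 did not pass, where 9.66% of all tested genes were called lower. Mbd4, a DNA repair gene that overlaps the start of Ift122 by 22 bases on the opposite strand, had a log2 fold change of -0.11 (edgeR adjusted p = 0.226). Whether strand was used in counting was not given in the sources used here, so reads from overlapping genes cannot be told apart. Around Wdr19, Klhl5 fell by 0.24 (edgeR adjusted p = 0.0151; DESeq2 adjusted p = 0.0763; not passing without Foxn3KO replicate 1) and Rfc1 had a log2 fold change of 0.05. Cramp1, beside Ift140, fell by 0.24 (edgeR adjusted p = 0.00555) and did not pass without Foxn3KO replicate 1 (edgeR adjusted p = 0.21). On the other side of Ift140, Telo2 had -0.05 on the log2 scale. The neighbours of Ift43, Tgfb3 and Gpatch2l, had 0.08 and -0.00192, those of Wdr35, Laptm4a and Ttc32, -0.10 and -0.13, and those of Ttc21b, Galnt3 and Scn1a, 0.37 and -0.21 on the log2 scale; none of these passed.

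The genes most like the mean IFT-A pattern were sought among 14844 genes whose mean reached 1 CPM outside the transport lists. Likeness was the root mean square distance between centred log2 CPM values over the 4 libraries. The 5 nearest were Ppp1r16a (0.0203), Gm32296 (0.0220), Abhd14a (0.0288), Fbxw9 (0.0297) and Efnb3 (0.0304 on the log2 scale). Gm32296 had an edgeR adjusted p of 0.0432 and did not pass in DESeq2 (adjusted p = 0.208), in limma-voom or with any 1 library left out. Ppp1r16a, which encodes a regulatory subunit of protein phosphatase, was at 58.5 and 59.8 CPM against 101.1 and 100.3 CPM. The subunits' own distances from their mean ran from 0.125 for Wdr35 to 0.383 for Ttc21b. The 5 genes were picked for the smallest distances among 14844, so their distances cannot be compared with those of the subunits. With 4 libraries in 2 groups the pattern is mainly the difference between the groups.

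The authors' deposited table gave the same sign for each subunit. In the authors' deposited table the log2 fold changes were 1.16 for Ift122, 1.13 for Ift43, 1.06 for Wdr19, 1.02 for Wdr35, 0.24 for Ift140 and 0.02 for Ttc21b. Adjusted p-values in the authors' deposited table were 0.0193 for Ift140 and 0.940 for Ttc21b, and at most 1.3e-33 for the other 4.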

How the data were processed

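RNA sequencing libraries of 4 embryonic mouse retinas were made with a directional kit and adaptors carrying molecular identifiers, per the labels. The authors deposited 1 table of whole-number counts per gene, which was tested here. The table also holds FPKM values deposited by the authors, a mean signal per gene, and, from the comparison the authors deposited, log2 fold changes with raw and adjusted p-values. The submitters' processing notes name DESeq2 and the build mm39. The aligner, counter, annotation, use of strand and duplicate removal are not given in the sources used here. Coordinates and sequences are RefSeq's in GRCm38.p6 and were not joined to the table by position.

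A repeated identifier was dropped, filterByExpr left 17300 of 18471 genes, and the main test was the two-sided quasi-likelihood test of edgeR 4.0.16 (R 4.3.3) on TMM-scaled counts, modelling genotype alone. Adjusted p-values are Benjamini-Hochberg values across every gene tested. Each SE is the size of the fold change divided by the square root of F. On simulated data for the same comparison, 80% of 200 genes changed 2-fold among 17300 were called, and 5 unchanged genes. P-values rest on the spread between 2 embryos a group, with the variance of each gene moderated by that of the other genes. Totals of 22543531 to 29360129 counts gave 1 SD of counting error of 2.51% to 5% for the gap between replicates of a subunit.

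The members and lists were chosen with earlier results of these data known. Named by rule were the 6 subunits, 4 regulators, called dynein-2 and adaptor genes, neighbours and the 5 most alike genes. In the other lists except the marker lists, the call with the smallest p per direction was named. Of the most abundant markers of each list, Pax6 alone is named. Genes outside this rule are Xist, Ddx3y, Gpr161, Ptch1 and those marked as named after their values were seen. Of the neighbours, 1 is not reported here, and the counts of neighbours leave it out. Alternatives were RLE and total count scaling, no filter, at least 10 counts per library, DESeq2 1.42.0, limma-voom (limma 3.58.1), the earlier edgeR fit, the replicate number as a term, and each library left out. Figures used matplotlib 3.10.9.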

Additional observations from a re-analysis of the deposited data

How the results depend on the processing

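Ift122, Wdr19, Wdr35 and Ift43 kept their direction and passed the threshold under all 8 alternatives and with each library left out. Without 1 library their log2 fold changes ranged from 1.145 to 1.183 for Ift122, 1.053 to 1.088 for Wdr19, 1.008 to 1.046 for Wdr35 and 1.045 to 1.251 for Ift43. Ift140 ranged from 0.1991 to 0.3255 and did not pass without Foxn3KO replicate 1 (0.238, edgeR adjusted p = 0.0538); the fit then had fewer samples. Ttc21b passed nowhere and changed sign under total count scaling (-0.00182) and with libraries left out (-0.02622 to 0.07315). The number of subunits called was 5 under the 8 alternatives and 4 to 5 with a library left out. With a library left out, medians ranged from 1.053 to 1.088 for the core and 1.008 to 1.046 for the periphery, and under the other alternatives from 1.05 to 1.072 and 1.005 to 1.028. The ratio of core to periphery in Foxn3KO over that in wild-type was 0.873, and 0.810 to 0.945 with a library left out. Of all tested genes 3795 were called, 2437 by DESeq2 (the cause was not tested) and 2323 to 5067 with a library left out, where the lone library of a group is assumed to vary like the other group. Whether replicate numbers shared between the groups mark a pairing is not given. The correlation over genes of the replicate differences was -0.00825, but with 1 difference in each group it cannot decide this. A replicate block raised the genes called to 4222 and the 5 subunits passed, with Ift140 at 0.26 and Ttc21b at 0.0174. Total count scaling moved the median of all genes to -0.0251.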

Other observations

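Some coat proteins outside the cilium share the WD-repeat and helical-repeat build of the large IFT-A subunits. Over all tested genes, 12.3% were called higher. Of 14 genes for subunits of COPI, COPII and clathrin coats and for Vps41, 3 were called higher and 11 did not pass. The 14 include subunits without that build, and the median log2 fold change over the 14 was 0.06. Copz1, a small COPI subunit without that build, had the smallest p among them, at 0.28 on the log2 scale (edgeR adjusted p = 0.000223). Sec13 (0.20) and Copb2 (0.15), named after their values were seen, did not pass when either Foxn3KO library was left out.

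Markers of other tissues gave mixed values. Of all tested genes, 12.3% were called higher and 9.66% lower. Of 10 choroid plexus genes 2 were called higher and 2 lower, and of 7 cornea and surface ectoderm genes 1 higher and 2 lower. Vessel markers had 3 of 10 called higher by edgeR and 0 by DESeq2. For 10 microglia markers edgeR called 0, with 2 at an unadjusted p under 0.05 and 0 called by DESeq2. The 5 blood markers gave 0 calls by edgeR, 0 at an unadjusted p under 0.05 and 0 by DESeq2, while their sum was 29.7 and 77.8 CPM in wild-type-labelled libraries and 50.6 and 53.4 CPM in Foxn3KO-labelled ones. Of 23 retinal markers 4 were called higher and 5 lower, with a median log2 fold change of 0.03.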
